A study of Homo sapiens with 6 samples.

Results

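HMGA1, HMGA2, LIN28B, IGF2BP1, IGF2BP2, IGF2BP3, MYC and MYCN are growth genes of the embryo that are active in many tumours. Most of them are low or silent in adult tissues, which makes them oncofetal, although MYC and IGF2BP2 are also expressed in adults. These 8 genes of the 62700 in the table were chosen from their FPKM (fragments counted per gene, scaled for gene length and library size) in the comparison described below. Their levels and differences are therefore given as a description, with no test. All libraries came from A549, an epithelial human lung cancer cell line (adenocarcinoma) that was grown in RPMI-1640 medium with fetal bovine serum. One group of 3 libraries carried a control guide RNA (sgControl, labelled wild type), and the other 3 carried a guide against H2AC19 (sgH2AC19), a gene for histone H2A that shares its protein with a near-identical neighbouring copy. No other treatment or genotype was labelled for either group. The labels do not say whether the 3 libraries of a group came from separate cultures or clones, so p-values measure only the spread between libraries, which may be technical.

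The genes form a well-known regulatory circuit. LIN28B is an RNA-binding protein that blocks the maturation of the let-7 microRNAs, and mature let-7 in turn represses mRNAs that carry sites matching its seed, LIN28B and HMGA2 among them. The HMGA proteins bind AT-rich DNA through AT-hooks and shape chromatin. The IGF2BP proteins bind mRNAs, many of them marked with N6-methyladenosine, and protect them from decay. MYC and MYCN are transcription factors of growth and ribosome genes, and MYC mRNA is a known cargo of the IGF2BP proteins.

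Most of these genes carry let-7 sites, so the microRNA and 1 matching site from each of 6 genes are shown, 5′ to 3′. Capitals mark bases 2 to 8 of the microRNA and the site letters in the 3′ UTR. The let-7a-5p sequence is from RefSeq (GRCh38.p14, chr9:94175962-94175983, plus strand), and the 8 other mature let-7 and miR-98 sequences that were searched for share its seed. Sites were read from GENCODE 29 transcripts on GRCh38, each with the 14 bases before it: HMGA1 at chr6:34245830-34245850 (plus strand), HMGA2 at chr12:65963299-65963320 (plus), LIN28B at chr6:105078813-105078834 (plus), IGF2BP1 at chr17:49051062-49051083 (plus), IGF2BP2 at chr3:185644220-185644241 (minus) and IGF2BP3 at chr7:23311795-23311816 (minus).
let-7a-5p: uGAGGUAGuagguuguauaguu
HMGA1: cctctgttcacaaaCTACCTC
HMGA2: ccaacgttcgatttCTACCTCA
LIN28B: cccggttgcaaagtCTACCTCA
IGF2BP1: gtgtgcgaagtaaaCTACCTCA
IGF2BP2: acacacagaagaagCTACCTCA
IGF2BP3: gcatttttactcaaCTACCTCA
The HMGA1 site is the 7-base form without the final A, and the other 5 are the 8-base form.

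The libraries held 35681162 to 45738439 reads, recovered from the steps between FPKM values. The library sgH2AC19 replicate 3 stood apart from its group: across genes it correlated with the other sgH2AC19 libraries at 0.9887 and 0.9886, against 0.993 to 0.994 for the other pairs within a group. H2AC19 and its copy H2AC18 were listed at 0 in all 6 libraries, so the targeted gene could not check the labels. The keratins KRT8, KRT18 and KRT7, markers of epithelium, were high in both groups, whereas the lung lineage genes NKX2-1, SFTPB and SFTPC were near 0. All 6 tested epithelial markers of 10 passed the test described below, 4 higher and 2 lower in sgH2AC19. Over all genes tested, 23.1% passed (12.0% higher and 11.0% lower in sgH2AC19). Among the 6, CDH1 passed narrowly (limma adjusted p = 0.0458) and lost its call in 8 of the 13 alternatives described below. The summed level of the epithelial markers was 834 to 864 FPKM in sgControl and 965 to 1011 in sgH2AC19. Of the markers of other cell types, 0 of 7 endothelial and 0 of 7 leukocyte genes reached the filter for testing (1 FPKM in at least 3 libraries), with CD3E and TYROBP at 0 throughout. Summed, the endothelial markers were at 0.144 to 0.218 FPKM in sgControl and 0.224 to 0.276 in sgH2AC19, and the leukocyte markers at 0.896 to 1.16 and 0.738 to 1.21. Of 7 fibroblast markers, 2 were tested and both were higher in sgH2AC19: LUM and COL1A1, the latter passing the filter only through sgH2AC19. Summed fibroblast marker levels were 3.38 to 3.87 FPKM in sgControl and 5.30 to 6.17 in sgH2AC19, with COL1A2 at 0 to 0.00518 FPKM. The part of these markers in the results below was not tested.

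The clearest differences were in the HMGA family. HMGA2 was at 50.3% of its control mean in sgH2AC19 and HMGA1 at 66.5%, IGF2BP3 was at 89.5%, and the group ranges of IGF2BP1, IGF2BP2, LIN28B and MYC overlapped. The values that chose the genes are these same values. The groups did not overlap for 3 of the 7 genes that passed the filter (HMGA1, HMGA2 and IGF2BP3). Over all 12871 genes tested they did not overlap for 43.2%, a near-equal share. MYCN, which did not pass the filter, overlapped. Of all genes tested, 2967 or 23.1% passed the test (an adjusted p under 0.05 by the Benjamini-Hochberg method, from limma fitted to log2(FPKM + 1)), 12.0% higher and 11.0% lower in sgH2AC19. The number was 1663, 1513 and 1632 without sgControl replicates 1, 2 and 3. It was 2135, 1965 and 3429 without sgH2AC19 replicates 1, 2 and 3. In bulk libraries, fewer cells expressing a gene and less RNA per cell cannot be told apart.

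HMGA2 (ENSG00000149948; chromosome 12, 65824131 to 65966295, plus strand, GRCh38) encodes the family member that is largely restricted to embryonic growth. Its FPKM was 23.9, 24.1 and 24.8 in sgControl replicates 1, 2 and 3, and 13.1, 12.0 and 11.5 in the sgH2AC19 replicates. Every sgH2AC19 library was below every control library, by far more than the spread within either group. The means were 24.2 ± 0.451 and 12.2 ± 0.798 (SD, n = 3 each), a difference of -0.94 in log2(FPKM + 1), the 25th lowest of the 12871 tested genes. The values rested on 3236 to 7568 reads per library, for which the counting error was at most 1.76%.

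HMGA1 (ENSG00000137309; chromosome 6, 34236873 to 34246231, plus strand) encodes the other AT-hook protein of the family and was the most abundant of the 8 genes, above 98.8% of tested genes in sgControl. Its FPKM was 182, 183 and 183 in sgControl and 132, 124 and 109 in sgH2AC19. The control libraries were almost identical, whereas the sgH2AC19 libraries were spread out, with replicate 3 lowest. Without that library the log2 difference was -0.51. The coefficient of variation was 0.326% in sgControl and 9.64% in sgH2AC19. The counting error alone was 0.761% to 1.02% per library, so the control value understates the spread to be expected of such libraries. The means were 183 ± 0.597 and 122 ± 11.7 (SD, n = 3 each), a log2 difference of -0.59 that ranged from -0.65 to -0.51 when 1 library was left out.

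HMGA1 has processed copies in the genome, and 8 such rows were in the table, 2 of them at 0 in all libraries. Summed over the copies, the level was 49.1 to 57.7 FPKM in sgControl and 29.9 to 40.9 in sgH2AC19. As a share of the FPKM of HMGA1 this was 26.8% to 31.7% in sgControl and 25.2% to 30.9% in sgH2AC19. FPKM is scaled for length, so this is not a share of reads. HMGA1P3, the copy with the highest FPKM, had 186 to 364 reads per library, against 9633 to 17274 for HMGA1. The summed copies and the gene thus differed between the groups in similar proportion, but single copies did not all do so. The highest copies, HMGA1P3 (means of 27.5 and 16.8 FPKM) and HMGA1P2 (15.7 and 8.85), did not overlap between groups. HMGA1P1 (6.49 and 5.04) and HMGA1P8 (2.91 and 2.01) overlapped, and HMGA1P4 was not lower in sgH2AC19 (1.25 and 1.30). Reads of the gene and of its copies cannot be told apart with certainty in these values. The antisense transcript HMGA2-AS1 was at 0.210, 0.168 and 0.127 FPKM in sgControl and 0.0399, 0.0418 and 0.0349 in sgH2AC19. It rested on 31 to 46 reads against 8 to 11, and as strand is not stated, its reads cannot be told apart from those of HMGA2.

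**Figure D1:**
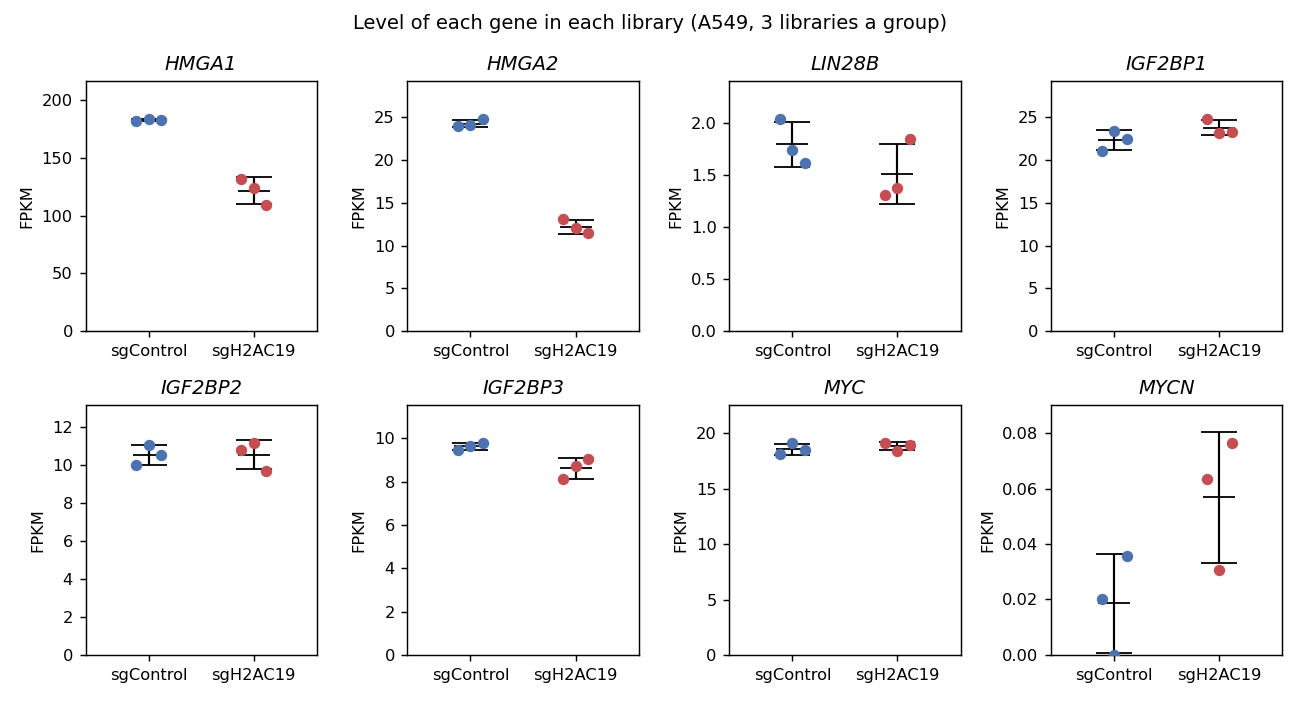
FPKM of each of the 8 genes (y axis, each panel from 0) in the 3 sgControl and 3 sgH2AC19 libraries; points are libraries, bars the mean and SD. HMGA1 (132, 124 and 109 against 182 to 183) and HMGA2 (11.5 to 13.1 against 23.9 to 24.8) separate by the widest margins, and MYCN does not exceed 0.0764 FPKM.

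The 2 HMGA genes did not differ in equal proportion. Summed HMGA1 and HMGA2 were 207.2 ± 0.828 FPKM in sgControl and 133.8 ± 12.5 in sgH2AC19 (SD, n = 3 each). The ratio of HMGA1 to HMGA2 was 7.62, 7.63 and 7.39 in sgControl and 10.1, 10.3 and 9.49 in sgH2AC19, without overlap. HMGA2 thus made up 11.7% of the summed HMGA level in sgControl and 9.13% in sgH2AC19.

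LIN28B (ENSG00000187772; chromosome 6, 104936616 to 105083332, plus strand), the let-7 blocker, was low in both groups. Its FPKM was 2.03, 1.74 and 1.61 in sgControl and 1.30, 1.38 and 1.84 in sgH2AC19. The groups overlapped, because sgH2AC19 replicate 3 was above control replicates 2 and 3. The means were 1.79 ± 0.215 and 1.51 ± 0.290 (SD, n = 3 each), and the log2 difference of -0.16 moved between -0.25 (without sgH2AC19 replicate 3) and -0.10 as libraries were left out. Each value rested on 292 to 438 reads, a counting error of 4.78% to 5.85%. Only 16.8% of tested genes had a lower level in sgControl.

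LIN28A and TRIM71 were lower still. LIN28A, the paralog of LIN28B, had means of 0.0042 FPKM in sgControl and 0.0071 in sgH2AC19, and TRIM71, a let-7 target of the embryo, had 0.0198 and 0.0135. Of 11 let-7 hairpin rows, 9 were at 0 in all libraries and the highest value was 0.703 FPKM, so the libraries give no measure of mature let-7. The host transcript MIRLET7A1HG had means of 1.72 and 1.79 FPKM (limma adjusted p = 0.739), and MIRLET7IHG 1.95 and 1.97 (limma adjusted p = 0.943). The third, MIRLET7BHG, was below the filter, with means of 0.877 ± 0.0291 and 0.713 ± 0.0492 FPKM (SD, n = 3 each) from 161 to 224 reads, and its groups did not overlap.

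The 3 IGF2BP genes kept a near-equal sum. IGF2BP1 (ENSG00000159217; chromosome 17, 48997412 to 49055650, plus strand), the mRNA-binding protein best known for protecting MYC mRNA, was at 21.1, 23.4 and 22.5 FPKM in sgControl and 24.8, 23.2 and 23.3 in sgH2AC19. Only sgH2AC19 replicate 1 exceeded all controls, and the ranges overlapped. The means were 22.3 ± 1.14 and 23.8 ± 0.879 (SD, n = 3 each), a log2 difference of 0.09.

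IGF2BP2 (ENSG00000073792; chromosome 3, 185643739 to 185825056, minus strand), the paralog that adult tissues also express, was at 10.0, 11.1 and 10.5 FPKM in sgControl and 10.8, 11.2 and 9.68 in sgH2AC19. The 2 ranges lay on top of each other, with means of 10.5 ± 0.529 and 10.5 ± 0.775 (SD, n = 3 each). The sign of its log2 difference has no weight, since it ran from -0.04 to 0.05 over the 13 alternatives.

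IGF2BP3 (ENSG00000136231; chromosome 7, 23310209 to 23470467, minus strand), the paralog most tied to tumours, was at 9.47, 9.63 and 9.79 FPKM in sgControl and 8.10, 8.70 and 9.05 in sgH2AC19. All sgH2AC19 libraries were below all controls, but the gap between the nearest libraries was narrow. The means were 9.63 ± 0.158 and 8.62 ± 0.478 (SD, n = 3 each), a log2 difference of -0.15. There were 2964 tested genes at or below it in the order of log2 differences.

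Within the family, IGF2BP1 gave 52.5% ± 0.518 of the summed IGF2BP level in sgControl and 55.3% ± 1.44 in sgH2AC19. IGF2BP3 gave 22.7% ± 0.759 and 20.1% ± 1.48, and IGF2BP2 24.8% ± 0.278 and 24.6% ± 1.47 (SD, n = 3 each). The IGF2BP1 share was higher, and the IGF2BP3 share lower, in every sgH2AC19 library than in every control. The sum itself was 42.5 ± 1.76 FPKM in sgControl and 42.9 ± 0.816 in sgH2AC19.

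**Figure D2:**
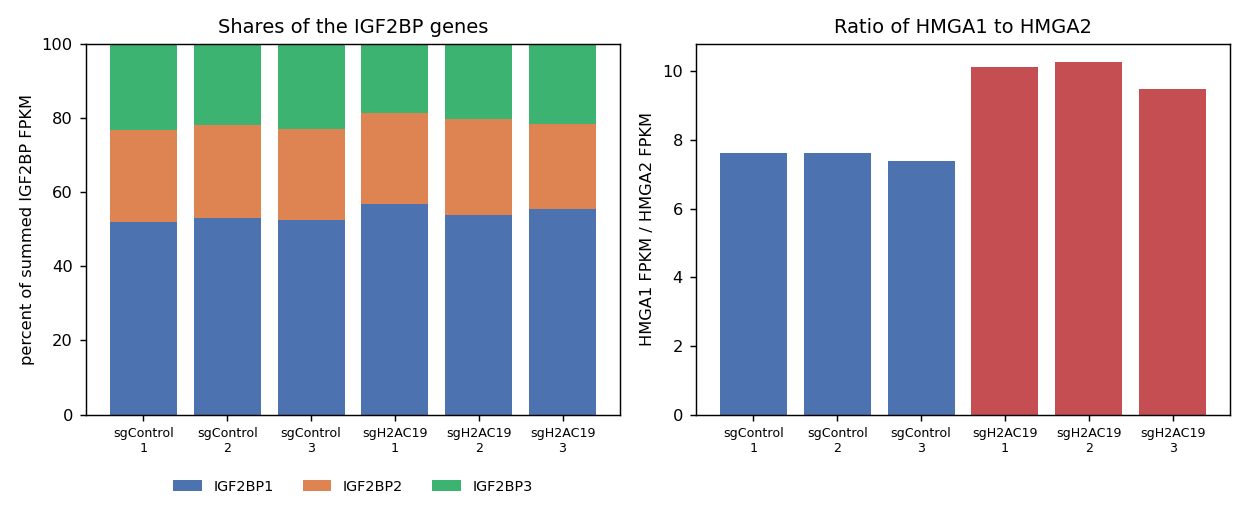
Left, the share of each IGF2BP gene in the summed IGF2BP FPKM of each library (percent); right, the ratio of HMGA1 to HMGA2 FPKM in each library. The IGF2BP1 share averages 52.5% in sgControl and 55.3% in sgH2AC19, and the HMGA ratio is 7.39 to 7.63 in sgControl and 9.49 to 10.3 in sgH2AC19.

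MYC (ENSG00000136997), the broadly expressed member of its family, was at 18.1, 19.1 and 18.5 FPKM in sgControl and 19.1, 18.4 and 18.9 in sgH2AC19. The ranges coincided, with means of 18.6 ± 0.511 and 18.8 ± 0.360 (SD, n = 3 each) and a log2 difference of 0.02. MYCN (ENSG00000134323; chromosome 2, 15940564 to 15947007, plus strand), the neural and embryonic member, was at 0.0200, 0 and 0.0358 FPKM in sgControl and 0.0635, 0.0305 and 0.0764 in sgH2AC19. These values stand for 2, 0 and 4 reads against 8, 3 and 8. The 0 in sgControl replicate 2 allows up to 0.0276 FPKM (3 reads, counting error only). MYCN did not pass the filter, the other 7 genes did, and no fold is given for it. MYCL, the remaining family member, had means of 0.302 ± 0.0557 and 0.420 ± 0.0452 FPKM and was also below the filter.

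Ordered by level in sgControl, HMGA1 came first, followed by HMGA2, IGF2BP1, MYC, IGF2BP2, IGF2BP3, LIN28B and MYCN. No neighbours in that order overlapped in their library values. In sgH2AC19 the order was HMGA1, IGF2BP1, MYC, HMGA2, IGF2BP2, IGF2BP3, LIN28B and MYCN, again without overlap between neighbours. The lengths behind these FPKM, as implied by the steps of 1 read, were 7535 bases for HMGA2 and 6109 for MYC, against 15403 and 3001 exon bases in GENCODE 29. The places of HMGA2 and MYC among the other genes, and the HMGA1 to HMGA2 ratio itself, therefore depend on the lengths used, whereas the ratio of FPKM between groups for 1 gene does not.

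The log2 differences of 6 of the 7 genes kept their sign in all 13 alternatives. These were scaling, filter, pseudocount, replicate block, voom on recovered reads, and leaving out each library. The filters and the block cannot change the log2 difference of a gene. For HMGA1, HMGA2 and IGF2BP3, whose groups did not overlap, leaving out 1 library cannot change the sign. In these cases the kept sign is no check. IGF2BP2 kept its sign in 10 of 13. HMGA2 ran from -0.99 to -0.90 and HMGA1 from -0.65 to -0.51. LIN28B ran from -0.27 (voom on recovered reads) to -0.10, around -0.16. IGF2BP1 ran from 0.05 to 0.12, IGF2BP3 from -0.18 to -0.11, and MYC stayed within 0.04 of 0.

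**Figure D3:**
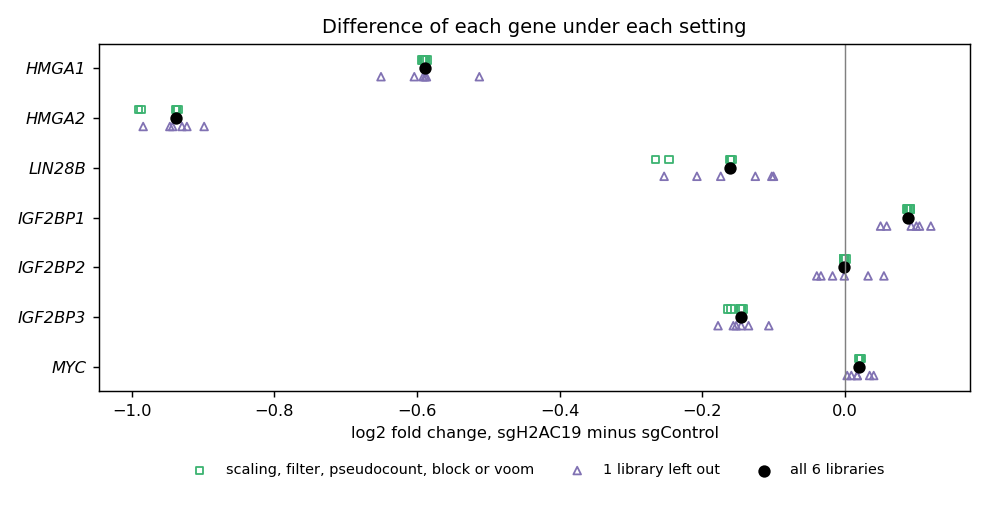
Log2 difference of 7 genes, sgH2AC19 minus sgControl (x axis), with all 6 libraries (filled circles), under other scalings, filters, pseudocount, block or voom (squares) and with 1 library left out (triangles). HMGA2 stays at or below -0.90 and HMGA1 at or below -0.51, while IGF2BP2 lies on both sides of 0.

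The let-7 sites differed among the genes in number more than in form. HMGA2 held 7 sites in a 3′ UTR of 3003 bases, LIN28B 5 in 4549 bases and IGF2BP1 5 in 6206 bases. IGF2BP2 held 2, IGF2BP3 and HMGA1 1 each, MYCN 2 and MYC 0. In all, 7 of 8 genes had a site, counting CTACCTCA, and CTACCTC or TACCTCA outside it, on the transcript strand, and 5 had the 8-base form. Of the 18752 3′ UTRs searched, 14.3% had a site and 3.36% an 8-base site, and among the 3235 UTRs of 2000 to 4000 bases the shares were 24.7% and 5.56%. Only HMGA2 and TRIM71, with 8 sites, reached 7 or more. A match is a description of letters and not a measured binding site.

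Site number did not order the differences. HMGA2, with 7 sites, had the lowest log2 difference (-0.94), but HMGA1, with 1 site, came next (-0.59), and LIN28B and IGF2BP1, with 5 sites each, were at -0.16 and 0.09. Among the other genes tested and searched, the 401 with an 8-base site had a median log2 difference of 0.00 (58 rose and 36 fell, 14.5% and 8.98%). The 8810 genes without a site had a median of -0.00 (12.9% rose and 11.6% fell). All 10542 searched had a median of -0.00 (13.3% rose and 11.4% fell). The 64 genes with 3 or more sites had a median of 0.03, with 9 rising and 4 falling (14.1% and 6.25%). Genes with 8-base sites had longer 3′ UTRs, with a median of 3034 bases against 965 without a site, and the part of UTR length was not tested.

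**Figure D4:**
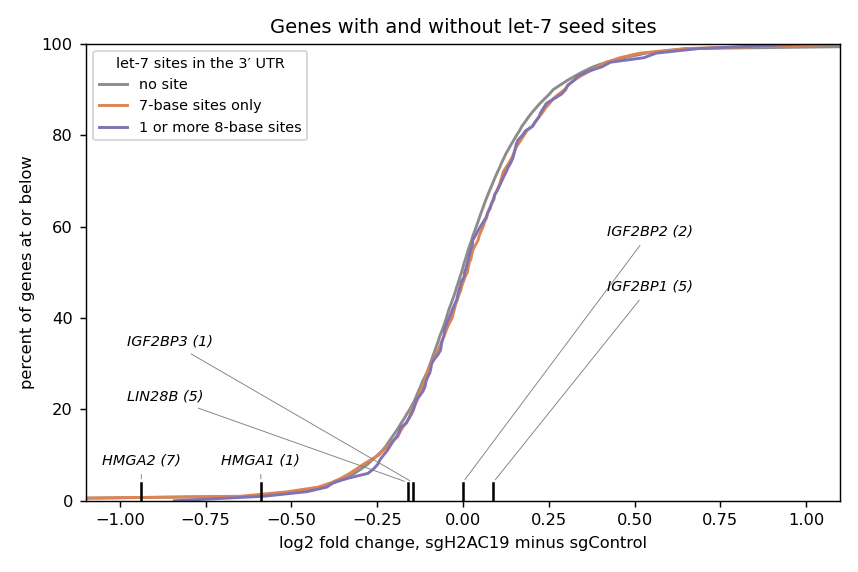
Cumulative percent of genes (y axis) at or below each log2 difference, sgH2AC19 minus sgControl (x axis), for genes with no let-7 site, only 7-base sites, or at least 1 8-base site in the 3′ UTR; ticks mark 6 genes with their number of sites. The 3 curves lie close together, with medians of -0.00, 0.01 and 0.00, and HMGA2 (-0.94) and HMGA1 (-0.59) stand at their lower end.

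The genes around this circuit were counted by role in 9 lists, each beside the background of 23.1% called over all genes tested. Of 22 tested makers and processors of let-7, 1 rose and 1 fell (9.09%, median log2 difference 0.03). DROSHA, the nuclear nuclease that releases the hairpin, rose from 7.88 ± 0.676 to 10.1 ± 0.0964 FPKM (log2 0.32, SE 0.0616, limma adjusted p = 0.0117). TUT7, which adds the uridine tail to let-7 precursors, fell from 6.43 ± 0.166 to 5.09 ± 0.165 FPKM (log2 -0.29, SE 0.0475, limma adjusted p = 0.0069). DICER1, which cuts the precursor, had means of 4.55 ± 0.0504 and 4.44 ± 1.01 FPKM (limma adjusted p = 0.821). Its sgH2AC19 replicates 1 and 2 (3.58 and 4.18 FPKM) lay below every control (4.51 to 4.61), and replicate 3 (5.56) above. Without sgH2AC19 replicate 3 the list had 5 calls in place of 2, and all genes had 3429 in place of 2967.

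Of 41 tested textbook let-7 targets other than the 8 genes, 6 rose and 7 fell (31.7%, median -0.04). One of the 7 that fell, ARID3B (1.30 and 0.900 FPKM), passed the filter only through sgControl, where it was higher, and is named here after its values were seen. Without it, 6 rose and 6 fell. IGF1R, the IGF receptor, rose from 21.0 ± 0.683 to 33.5 ± 0.641 FPKM (log2 0.65, SE 0.0431, limma adjusted p = 0.00034). TGFBR1, a TGF-beta receptor, rose from 27.9 ± 0.427 to 48.8 ± 9.42 FPKM (log2 0.77, limma adjusted p = 0.0054). Cyclin D1 (CCND1), which drives entry into S phase, fell from 86.0 ± 3.16 to 54.6 ± 1.54 FPKM (log2 -0.65, SE 0.0446, limma adjusted p = 0.000384). SLC20A1, a phosphate transporter, fell from 75.6 ± 1.57 to 56.3 ± 3.19 FPKM (log2 -0.42, limma adjusted p = 0.0022). Without sgControl replicate 1 the list had 8 calls in place of 13, and without sgH2AC19 replicate 3 it had 14. All genes had 1663 and 3429 calls in these settings, in place of 2967.

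Of 26 tested writers, erasers and readers of N6-methyladenosine and partners of IGF2BP proteins, 3 rose and 1 fell (15.4%, median -0.03). FTO, a demethylase, rose from 2.58 ± 0.0186 to 3.46 ± 0.0871 FPKM (log2 0.32, limma adjusted p = 0.0058), and RBM15B, a methylation adaptor, rose from 5.43 ± 0.300 to 7.95 ± 0.842 FPKM (log2 0.47, limma adjusted p = 0.0065). G3BP1, a stress granule protein, fell from 18.5 ± 0.506 to 14.5 ± 0.627 FPKM (log2 -0.33, limma adjusted p = 0.0046). HNRNPU, a nuclear RNA-binding protein, had means of 32.2 and 36.1 FPKM (log2 0.16, limma adjusted p = 0.0261), a call lost without sgControl replicate 1, 2 or 3 or sgH2AC19 replicate 2 (limma adjusted p of 0.0664 to 0.103).

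Of 22 tested mRNAs known to be bound by IGF2BP proteins, 5 rose and 2 fell (31.8%, median 0.02). PEG10, an imprinted gene of retroviral origin, more than doubled, from 31.0 ± 1.64 to 69.9 ± 4.17 FPKM (log2 1.15, SE 0.0603, limma adjusted p = 0.000214). MKI67, a proliferation marker, rose from 16.4 to 20.2 FPKM (log2 0.28, limma adjusted p = 0.0119), and the list also holds IGF1R and CCND1. IGF2 and H19, classic IGF2BP cargoes, did not pass: IGF2 had means of 1.92 ± 0.160 and 1.78 ± 0.0858 FPKM (limma adjusted p = 0.520) and H19 0.968 ± 0.162 and 1.24 ± 0.188 (limma adjusted p = 0.224). Without sgH2AC19 replicate 3 the list had 11 calls in place of 7, and all genes had 3429 in place of 2967. Leaving out any 1 of the other libraries gave the list 5 or 6 calls.

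Of 16 tested high mobility group proteins outside the HMGA family, 4 rose and 1 fell (31.2%, median 0.04). HMGB3, a DNA-bending protein, rose from 47.8 ± 2.23 to 67.5 ± 4.02 FPKM (log2 0.49, limma adjusted p = 0.0022), and HMGN2, a nucleosome-binding protein, rose from 37.4 ± 1.71 to 48.5 ± 3.18 FPKM (log2 0.36, limma adjusted p = 0.0069). UBTF (12.4 and 14.5 FPKM, limma adjusted p = 0.0179) and BBX (13.6 and 15.7 FPKM, limma adjusted p = 0.0275) lost their calls without any 1 of the 3 sgControl libraries, BBX also without sgH2AC19 replicate 2 and with all genes above 0 FPKM tested (limma adjusted p = 0.0642). The list had 2 calls in place of 5 without sgControl replicate 1, 2 or 3. Over all genes the calls in these settings also fell, to 1663, 1513 and 1632 in place of 2967.

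Of 15 tested genes described as regulated by HMGA1 or HMGA2, 4 rose and 3 fell (46.7%, median 0.05). STAT3, a cytokine-signal transcription factor, rose from 17.3 ± 0.273 to 25.8 ± 0.354 FPKM (log2 0.55, limma adjusted p = 0.0004), and TGFBR2, the other TGF-beta receptor subunit, rose from 55.0 ± 1.36 to 81.1 ± 2.58 FPKM (log2 0.55, limma adjusted p = 0.0005). CCNB2, a mitotic cyclin, rose from 20.8 to 25.7 FPKM (log2 0.29, limma adjusted p = 0.0103). PLAU, the urokinase, fell from 113 to 86.7 FPKM (log2 -0.38, limma adjusted p = 0.0112, and 0.0514 with all genes above 0 FPKM tested). Without sgControl replicate 1 the list had 4 calls in place of 7, and without sgH2AC19 replicate 3 it had 9. All genes had 1663 and 3429 calls in these settings, in place of 2967.

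Of 32 tested partners and regulators of MYC, 2 rose and 5 fell (21.9%, median -0.03). MXD1, which competes with MYC for MAX, fell from 7.73 ± 0.694 to 3.87 ± 0.430 FPKM (log2 -0.84, SE 0.0865, limma adjusted p = 0.0014). MLXIP, a partner of MLX, rose from 4.90 ± 0.0578 to 6.86 ± 0.336 FPKM (log2 0.41, limma adjusted p = 0.0022). MAX, the obligate partner of MYC, had means of 9.10 ± 0.429 and 7.70 ± 0.218 FPKM (limma adjusted p = 0.0233), and the MYC-cooperating kinase PIM1 11.6 and 9.46 (limma adjusted p = 0.0245). Both calls were lost without sgControl replicate 1 or 2 or sgH2AC19 replicate 2, and that of PIM1 also without sgH2AC19 replicate 1. With all genes above 0 FPKM tested, the limma adjusted p was 0.0598 for MAX and 0.0793 for PIM1. The list had 2 calls in place of 7 without sgControl replicate 1 or 2 or sgH2AC19 replicate 2. It had 4 without sgControl replicate 3 or sgH2AC19 replicate 1. Over all genes the calls in these settings were, in that order, 1663, 1513, 1965, 1632 and 2135, in place of 2967.

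Of 38 tested textbook MYC targets, 5 rose and 1 fell (15.8%, median -0.00). NOLC1, a nucleolar protein of ribosome assembly, rose from 26.1 ± 0.624 to 52.4 ± 0.762 FPKM (log2 0.98, SE 0.0397, limma adjusted p = 8.8e-05), and the chaperonin HSPD1 rose from 74.8 ± 1.53 to 96.9 ± 2.63 FPKM (log2 0.37, limma adjusted p = 0.0016). SHMT1, an enzyme of folate metabolism, had means of 7.71 and 9.59 FPKM (limma adjusted p = 0.0140, and 0.0528 without sgControl replicate 2). FBL, the nucleolar methyltransferase, had means of 169.7 and 146.1 FPKM (limma adjusted p = 0.0240), a call lost without sgControl replicate 2 or 3 or sgH2AC19 replicate 2 (limma adjusted p of 0.0716 to 0.0867) and with all genes above 0 FPKM tested (limma adjusted p = 0.0872). The list had 2 calls in place of 6 without sgControl replicate 2 and 3 without sgH2AC19 replicate 2, and 12 (7 higher, 5 lower) with voom. Over all genes the calls in these 3 settings were 1513, 1965 and 3541, in place of 2967, so the whole test moved the same way.

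Of 30 other oncofetal genes, 11 were below 0.1 FPKM in every library and 13 were tested. Of these, 5 rose and 1 fell (46.2%, median 0.18). BIRC5, the apoptosis inhibitor survivin, rose from 16.0 ± 0.813 to 24.2 ± 0.616 FPKM (log2 0.56, limma adjusted p = 0.00088), and GPC1, a heparan sulfate proteoglycan, rose from 6.12 ± 0.464 to 7.85 ± 0.1002 FPKM (log2 0.31, limma adjusted p = 0.0103). TNFRSF12A, the receptor of TWEAK, fell from 43.9 ± 0.800 to 34.3 ± 1.08 FPKM (log2 -0.35, limma adjusted p = 0.00223). PEG10 is also on this list.

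**Figure D5:**
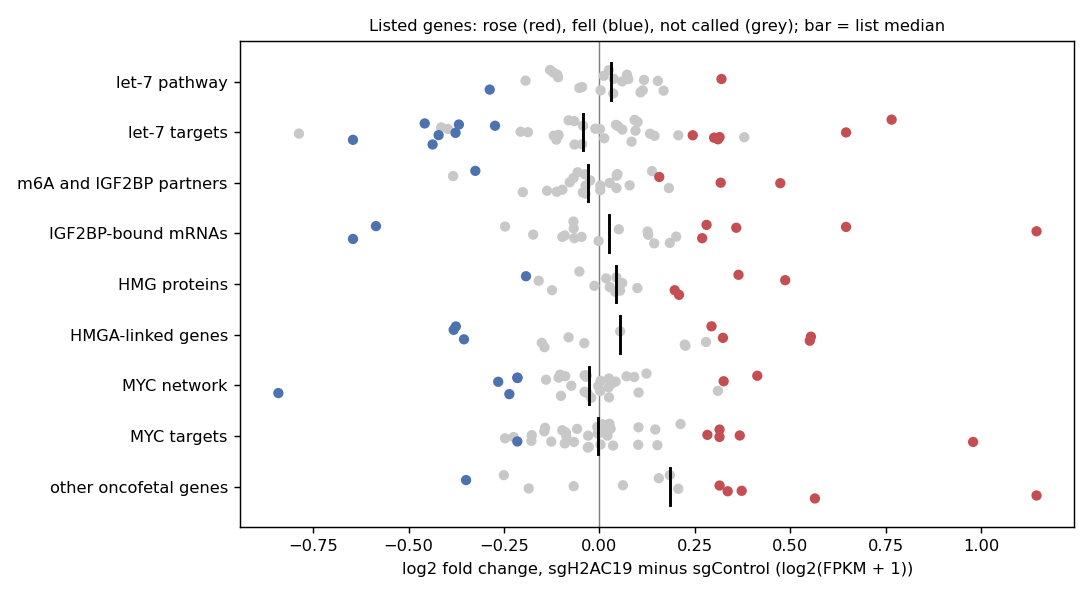
Log2 difference, sgH2AC19 minus sgControl on log2(FPKM + 1) (x axis), of each tested gene in 9 lists; red points rose, blue fell, grey did not pass, and bars are list medians. List medians run from -0.04 to 0.18, each list holds genes on both sides of 0, and PEG10 (1.15) and NOLC1 (0.98) lie farthest to the right.

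The genes with the most similar profiles over the 6 libraries were found by the root mean square distance of centred log2(FPKM + 1) values. Nearest to HMGA2 was ITGA2, a collagen-binding integrin subunit, with means of 91.1 and 49.0 FPKM in sgControl and sgH2AC19 (distance 0.0425, r = 0.998 over 6 libraries). CCBE1, a secreted factor of lymphatic growth, followed with 4.91 and 2.19 FPKM, and SLAMF7 with 2.18 and 0.805. SLAMF7 passed the filter only through sgControl, where it was higher, so its likeness to HMGA2 has no weight. Nearest to HMGA1 was MEG3, an imprinted non-coding RNA, with 8.53 and 5.23 FPKM (distance 0.0207, r = 0.998 over 6 libraries), then DRAP1 and PORCN. The profiles share libraries and group difference, so these values only describe likeness.

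The nearest profiles to IGF2BP3 were those of LNPEP, PIP4K2A and SLC35F5, and to LIN28B those of ZBTB10, PXDC1 and PEX7. IGF2BP1 lay nearest to TASP1, ENDOV and HMGXB4, IGF2BP2 to TRIM45, PITPNA-AS1 and SLC25A38, and MYC to CIAO2A, STAG3L4 and SZRD1. The log2 differences of these last 9 genes were all between -0.01 and 0.09.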

How the data were processed

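RNA from A549 cells was made into libraries with a SMARTer mRNA kit, per the labels' protocols, with 3 libraries per group. The deposited table holds FPKM computed by the authors, 1 column per library, per the file headers. Names of the aligner, counter and annotation were not given in the sources used here. The submitters' processing notes name GRCm38 and mm10, both of them mouse genomes, but all 62700 gene IDs matched human symbols. Columns headed sgNC were read as sgControl and those headed sgH2AC as sgH2AC19.

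The 12871 genes that reached 1 FPKM in 3 or more libraries were tested on log2(FPKM + 1) with limma 3.58.1 in R 4.3.3 (mean-variance trend, two-sided, Benjamini-Hochberg over all tested genes, threshold 0.05). A count test was planned for the case of deposited counts and was not the main test, because the values are FPKM. Fold changes on this scale understate those of low genes. Whole reads were recovered for 12866 of the 12871 genes (tolerance 0.001 reads), using GENCODE 29 lengths to set the totals, and a voom test on them was an alternative. FPKM leave differences in composition uncorrected: between 33.6% and 36.4% of a library's FPKM lay in its top 20 genes.

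The 8 genes, the 9 lists and the 4 marker lists were chosen with earlier results of these data known, so no list supports its own direction. Named were the 8 genes, up to 4 called genes per list with the smallest adjusted p, LIN28A, TRIM71, DICER1, IGF2, H19, MAX and MYCL whatever their values, and the 3 nearest profiles per gene. Related transcripts (pseudogene copies, antisense and let-7 rows) and markers were named beside them. 3′ UTRs of at least 50 bases were taken from 1 principal transcript per gene in GENCODE 29. The alternatives were a pseudocount of 0.1, other filters, median-ratio and upper-quartile scaling, voom, the replicate number as a block, and leaving out each library. The test code was checked on simulated data.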

Additional observations from a re-analysis of the deposited data

How the results depend on the processing

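None of the called genes among those named changed direction under an alternative. IGF2BP2, which was not tested and lay at 0, changed sign in 3 of 13. The 91 values of the 7 genes under the alternatives all lay within 1 SD between replicates of the value with all libraries. Most of them could not do otherwise. Leaving out 1 of 3 libraries always moves a group mean by less than 1 SD of that group. The filters and the block leave the log2 difference of a gene unchanged. The count is therefore no measure of stability. Of 712 values of 55 named genes, 671 kept their side of the threshold, 37 lost it and 4 gained it. Testing all genes above 0 FPKM left 1553 calls (900 higher, 653 lower) in place of 2967 (1545 and 1422), with more genes in the adjustment. In that setting the calls were 7 for let-7 targets, 3 for high mobility group proteins, 3 for HMGA-linked genes, 2 for the MYC network and 3 for MYC targets. Voom gave 3541 calls over all genes and 12 among MYC targets. Leaving out 1 library gave 1513 to 3429 calls over all genes, 2 to 5 for the let-7 pathway, 8 to 14 for let-7 targets, 3 to 6 for N6-methyladenosine and IGF2BP partners, 5 to 11 for IGF2BP-bound mRNAs, 2 to 5 for high mobility group proteins, 4 to 9 for HMGA-linked genes, 2 to 6 for the MYC network, 2 to 8 for MYC targets and 4 to 5 for other oncofetal genes. For the voom counts the cause was not tested. Scaling by median ratio or upper quartile moved the median of all genes from -0.01 to -0.00 and -0.01.

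With the replicate number as a block, 2729 genes passed (1406 higher, 1323 lower), and HNRNPU (limma adjusted p = 0.0561) and FBL (0.0526) did not. Deviations of same-numbered libraries correlated at 0.0524, 0.0346 and 0.0602, each library correlating best with its own number, and the labels state no pairing, so the numbers were not used as pairs. MYCN (0 to 8 reads) and LIN28B (292 to 438 reads) are the genes whose precision depth limits most.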
